A study of Mus musculus with 8 samples.

Results

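The glucocorticoid receptor (GR) peaks of 6 mouse liver libraries merged into 51431 sites, of which 8097 carried a peak in all 6 libraries. Of these constant sites, 3078 had their centre within 1 kb of an annotated transcript start and are described here as constant promoter GR sites. They made up 38.0% of the constant sites (95% exact binomial interval 37.0 to 39.1%), and the remaining 5019, called constant distal sites, serve as the comparison. Presence in all 6 lists and distance to a start are the measured values the members were selected on, so neither is a result. Of 12876 sites of any library within 1 kb of a start, 23.9% were constant, against 13.0% of 38555 distal sites. The smallest lists set most of the choice: the members were 60.9% of the promoter sites of ctrl. replicate 2, and 29.9 to 59.4% of those of the other libraries. At the 1 kb limit, the sites at Gm19522 and Gm25198, centred 997 bp from a start, were kept. The sites at Igf1os (1001 bp) and Pkp4 (1003 bp) fell outside, with mean percentiles of 58.8 and 70.0 against 53.3 and 82.5 for the pair inside.

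GR (gene Nr3c1) is a nuclear receptor that enters the nucleus when glucocorticoids bind it and attaches to DNA at palindromic glucocorticoid response elements (GREs), or through other factors. In liver it drives gluconeogenic and amino acid breakdown genes in the fasting phase and feeds back on the circadian clock. FOXO1 is a forkhead factor that insulin signalling keeps out of the nucleus, and that acts on fasting genes. Promoters are often rich in CpG dinucleotides and open in most cell types, whereas distal enhancers are mostly open in particular cell types only.

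All livers came from male C57BL/6J wild-type mice on regular chow. Mice of the feeding protocol were single-housed from 12 weeks of age, and that protocol lasted 8 weeks. For the CORT mice the methods give 12 weeks of age before acclimatization to handling and 7 days of injections, and state no single housing. By these methods age and handling differed between CORT and the feeding protocol, and their part was not tested. The study's reporting summary gives a single age range for its mice, so the sources do not agree on age. Liver was collected at ZT12, when lights go off, and fixed in 4% formaldehyde before chromatin immunoprecipitation. GR was mapped in 2 libraries each of night-restricted feeding (ctrl.), caloric restriction (cal. res.) and night-restricted feeding with daily intraperitoneal corticosterone at 5 mg/kg for 7 days (CORT). The paper also tried a milder restriction and states that its later experiments kept to the stricter level. In the feeding protocol, food was given at ZT12. No vehicle injection of the ctrl. mice is named in the sources used here. FOXO1 was mapped in cal. res. liver alone, as 1 list that the authors made from 2 merged libraries, so its values have no replicate. The libraries carry 2 series of names: ctrl. replicate 1 and both CORT libraries in one, ctrl. replicate 2 and both cal. res. libraries in the other. The labels do not call the series a batch, and cal. res. and CORT share none, so that ctrl. alone links them, with 1 library in each. The lists held 11482 (ctrl. replicate 2) to 37862 sites (CORT replicate 2). The study states a single nominal read depth for these libraries, and the read totals of single libraries were not analysed here. In whole liver, fewer cells of a type and less GR per cell cannot be told apart. Of 8 hepatocyte markers, Apoa2, Apob, Ttr and Hnf4a had a constant promoter site, while Alb, Apoa1, Cps1 and Tat had none. A promoter peak in any library was present at 5 of the 8. None of 30 markers of Kupffer, endothelial, stellate and bile duct cells had one, and 5 of these 30 had a promoter peak in any library.

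The GR values below are fold enrichments, the ratio of the peak summit's signal to its local background as the peak caller gave it. Because fold enrichment scales differently between libraries, ranks are given as percentiles: the position of a site among all sites of the same library, with 100 for the strongest.

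Sequences under the members whose values carry the results are shown first (mm10, plus strand, read from the GRCm38 genome). All lie outside the exons of GENCODE M21 basic. Capitals mark the match of the named motif nearest the GR summit, and any further copy, as at Dynll1, is in small letters. A GRE under the summit was rare among the members. It was present in these sites, which were picked for a rank near the top or, at BB123696, for a rise with CORT. As a class the members with a GRE did not rise with CORT, as given below. The first is at Gm27252 (chr7:63897029-63897163, intronic, inside Klf13), the second at A230028O05Rik (chr16:25059331-25059465, between genes), the third at Plin4 (chr17:56108791-56108925, intronic), the fourth at Ttpa (chr4:20009104-20009238, intronic) and the fifth at BB123696 (chr13:52736394-52736528, intronic).
Gm27252: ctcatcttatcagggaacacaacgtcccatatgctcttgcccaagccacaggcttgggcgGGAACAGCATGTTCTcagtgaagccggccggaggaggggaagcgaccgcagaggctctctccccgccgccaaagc
A230028O05Rik: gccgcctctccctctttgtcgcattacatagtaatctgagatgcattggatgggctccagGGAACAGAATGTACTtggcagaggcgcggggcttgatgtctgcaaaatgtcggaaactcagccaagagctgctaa
Plin4: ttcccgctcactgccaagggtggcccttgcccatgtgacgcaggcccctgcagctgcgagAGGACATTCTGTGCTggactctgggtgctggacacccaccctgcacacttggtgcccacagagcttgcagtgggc
Ttpa: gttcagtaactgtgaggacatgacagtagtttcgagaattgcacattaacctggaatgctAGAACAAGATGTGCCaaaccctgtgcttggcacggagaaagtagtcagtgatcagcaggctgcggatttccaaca
BB123696: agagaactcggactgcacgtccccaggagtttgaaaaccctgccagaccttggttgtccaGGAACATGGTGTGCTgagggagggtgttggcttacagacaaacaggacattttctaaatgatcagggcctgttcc
The Pdk4 promoter (chr6:5496577-5496703, between genes) had the highest FOXO1 value of all members, and it holds the forkhead motif TGTTTAC.
Pdk4: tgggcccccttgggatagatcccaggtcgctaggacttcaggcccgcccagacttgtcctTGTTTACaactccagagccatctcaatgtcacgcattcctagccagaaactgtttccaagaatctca
Most members had no GRE. The windows at Dynll1 (chr5:115301000-115301111), which ranked near the top and fell with CORT, and Gm15545 (chr7:44986685-44986809), which differed between cal. res. and CORT, show the NF-Y motif CCAAT, here read as ATTGG on the plus strand. The window at Zdhhc5 (chr2:84715549-84715676), which also differed between cal. res. and CORT, shows the ETS motif CCGGAAGT. All 3 lie between genes.
Dynll1: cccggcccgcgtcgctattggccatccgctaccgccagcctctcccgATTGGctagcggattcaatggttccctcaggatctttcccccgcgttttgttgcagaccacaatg
Gm15545: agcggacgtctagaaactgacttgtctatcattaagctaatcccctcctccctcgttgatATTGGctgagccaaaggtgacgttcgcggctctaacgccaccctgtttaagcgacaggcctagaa
Zdhhc5: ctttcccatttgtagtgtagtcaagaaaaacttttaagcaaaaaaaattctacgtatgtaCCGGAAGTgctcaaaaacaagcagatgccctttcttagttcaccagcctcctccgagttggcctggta
A motif match is a description of the letters and not a measured binding site.

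The members were broad, CpG-rich regions close to protein-coding starts. Their median width was 1287 bp (377 to 10543 bp), against 1052 bp for constant distal sites, and their centres lay a median of 147 bp from a start (quartiles 59 and 323 bp). The nearest start was protein-coding for 85.1% of them, and 90.1% had a protein-coding start within 1 kb. Starts on both strands lay within 1 kb of 23.5% of the members (22.0 to 24.99%), and the same held for 18.1% of 41492 protein-coding starts. Median GC content in the 200 bp around the summit was 63.5%, against 49.0% at constant distal sites and 59.5% at all starts. The ratio of observed to predicted CpG, which is low where CpG dinucleotides have been lost, was at least 0.6 in 67.1% of members, 5.64% of constant distal sites and 51.7% of all starts. The rule used position, so these values describe the members and carry no test.

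GR summits sat near the starts in every library. The median distance from summit to start was 125 and 124 bp (ctrl.), 127 and 135 (cal. res.), and 113 and 147 (CORT). Between 57.7% and 63.6% of the summits of a library lay upstream of the start, with medians of 31 to 60 bp upstream. A member's summit moved more between libraries than that of a distal site: all 6 summits fell within 100 bp of each other at 23.4% of members and at 56.5% of constant distal sites. The median spread of the 6 summits was 214 bp at members and 86.0 bp at distal sites.

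The members spanned weak and strong GR sites. Their median fold enrichment was 9.63 and 4.77 (ctrl.), 6.41 and 5.16 (cal. res.), and 12.1 and 11.5 (CORT). Constant distal sites had medians of 12.7 and 5.13 (ctrl.), 11.1 and 8.35 (cal. res.), and 12.3 and 13.8 (CORT). Single members ranged from 2.57 to 84.8 in ctrl. replicate 2 and up to 253 in CORT replicate 2. Of the members, 22.7% and 7.99% (ctrl.), 9.71% and 8.45% (cal. res.), and 27.0% and 32.9% (CORT) lay above the 90th percentile of their library, against 45.9% and 17.3%, 32.4% and 27.4%, and 31.4% and 44.2% of distal sites. Among the 100 strongest constant sites of a library, 10 to 20% were at promoters, although promoters were 38.0% of the constant sites.

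By rank, the members lay below constant distal sites in 6 of 6 libraries. Their median percentile was 79.7 and 54.4 (ctrl.), 56.9 and 50.8 (cal. res.), and 80.9 and 83.9 (CORT). The medians of distal sites were 88.7 and 62.9, 83.1 and 79.5, and 81.6 and 88.2 in the same order. Distal sites stood 9.03 and 8.496 percentile points higher (ctrl.), 26.1 and 28.7 (cal. res.), and 0.664 and 4.35 (CORT). The mean difference was 12.9 points, and a two-sided exact sign-flip permutation test over the 6 libraries gave p = 0.0312, the smallest it can give. With stricter peak lists or a ranking by p-value the difference in CORT replicate 1 turned sign and p rose to 0.0625 to 0.0938.

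**Figure D1:**
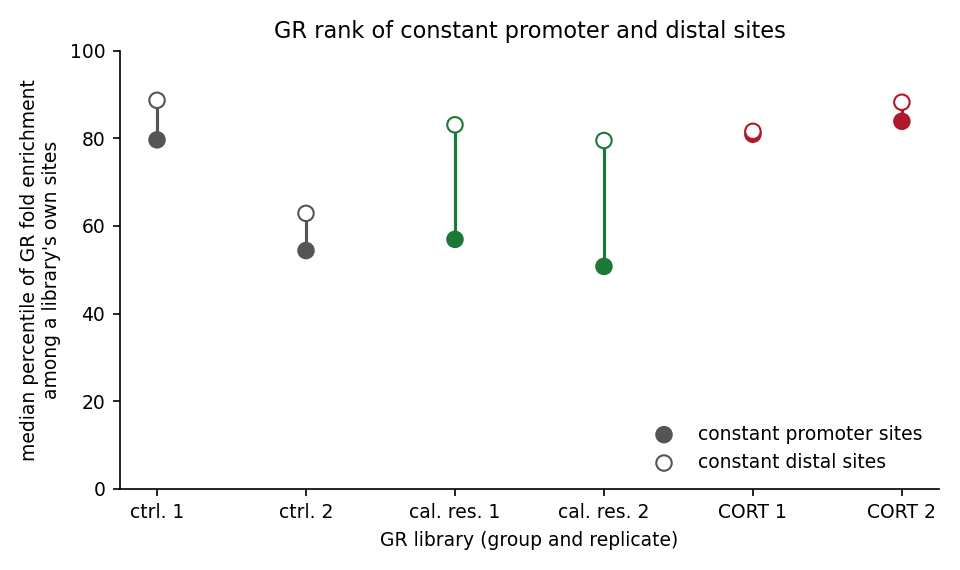
Median percentile of GR fold enrichment (y axis, 0 to 100, 100 the strongest) in each of the 6 GR libraries (x axis) for the 3078 constant promoter sites (filled) and the 5019 constant distal sites (open), joined by a line and coloured by group. The distance between the symbols is 26.1 and 28.7 points in the cal. res. libraries and at most 9.03 points in the others, and the filled symbols lie at 50.8 to 56.9 in the series with cal. res. and at 79.7 to 83.9 in the series with CORT.

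The distance between distal and promoter sites was 27.4 ± 1.83 points in cal. res., 8.76 ± 0.379 in ctrl. and 2.51 ± 2.61 in CORT (SD, n = 2 each). The groups did not overlap, and the exact permutation test over the 3 groups gave p = 0.0667, the smallest this design allows. Each pair of groups gave an exact permutation p of 0.333, also the smallest possible. Both ctrl. libraries, 1 of each series, had nearly the same distance in this ranking, but not in a ranking within the constant sites (22.2 and 8.69) or with equal list sizes (13.99 and 3.60). The members' own median percentile behaved otherwise: it was 53.9 ± 4.37 in cal. res., 67.0 ± 17.9 in ctrl. and 82.4 ± 2.08 in CORT (SD, n = 2 each; exact permutation p = 0.200 over 3 groups). Its value in each ctrl. library lay with the treated libraries of the same series: 54.4 beside 50.8 and 56.9, 79.7 beside 80.9 and 83.9. The list lengths split the same way, 11482 beside 17340 and 20741 sites, and 34778 beside 27650 and 37862. A percentile is taken within a list, so the difference between groups moved with series and list length, and the part of neither was tested. Under the alternatives that kept all 6 libraries, cal. res. minus CORT ran from -31.1 to -15.3 points and CORT minus ctrl. from 6.86 to 16.9.

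The distance was also taken within a band of GC content. Among sites with 50 to 60% GC, a band chosen after the data were seen, 1914 distal sites stood 8.75 and 11.4 points above 780 members (ctrl.), 18.9 and 22.9 (cal. res.), and 0.575 and 1.52 (CORT). Over all 3078 members, Spearman's rho of GC content with fold enrichment ran from -0.39 (CORT replicate 2) to 0.014. The sets were not matched for GC content inside the band. Ranked among the constant sites alone, the distance was 22.2 and 8.69 points (ctrl.), 33.6 and 32.5 (cal. res.), and 1.30 and 11.9 (CORT). Here ctrl. and CORT overlapped, and the exact permutation p over the 3 groups was 0.133. Among the members, CpG-rich promoters ranked below CpG-poor ones in all 6 libraries. CpG-rich members had median percentiles of 77.5 and 52.3 (ctrl.), 48.3 and 43.2 (cal. res.), and 80.3 and 80.4 (CORT). CpG-poor members had 85.6 and 59.0, 76.4 and 71.8, and 82.6 and 89.8. The distance was 28.1 and 28.6 points in cal. res. and 2.25 to 9.40 points in the other libraries. This split was chosen after the data were seen and is given without a test.

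The members' order was shared between the replicates of a group to a different extent. Spearman's rho across the 3078 members was 0.50 between the ctrl. libraries, 0.75 between the cal. res. libraries and 0.64 between the CORT libraries. Across constant distal sites it was 0.58, 0.86 and 0.75. These are correlations across sites, which share libraries and base composition, and carry no p. Of the replicate pairs, the ctrl. libraries, which span both series, were the least alike. Across members, ctrl. replicate 2 had a rho of only 0.46 and 0.44 with the cal. res. libraries of its own series. With these same libraries ctrl. replicate 1, of the other series, had 0.57 and 0.60. The order of similarity therefore did not follow the series alone, and the part of the series was not tested.

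Of the 10 members with the highest mean percentile, 5 lay at starts of noncoding transcripts. All 10 were chosen on the mean over the 6 libraries, so a high rank in every library follows from the choice. Their lowest percentile in any library was 98.8. The site at Gm27252 (chr7:63894629-63898994), whose GRE is shown above, ranked at the top. Its fold enrichment was 164 and 77.3 (ctrl.), 198 and 153 (cal. res.), and 159 and 253 (CORT). The nearest protein-coding start was 20045 bp away, at E030018B13Rik. The site at the antisense transcript Gm44710 (chr7:28374376-28383596) lay 269 bp from Zfp36, which encodes a protein that destabilises inflammatory mRNAs. It had 108 and 62.2 (ctrl.), 144 and 113 (cal. res.), and 125 and 197 (CORT). The site at A230028O05Rik (chr16:25058689-25060086) had 114 and 69.5, 147 and 99.2, and 138 and 168. In these 3 sites the lowest value was that of ctrl. replicate 2, the library with the lowest median.

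Plin4 encodes a lipid droplet coat protein. Its promoter site (chr17:56108395-56111432) had 58.2 and 38.1 (ctrl.), 129 and 105 (cal. res.), and 63.5 and 161 (CORT). On the normalized log2 scale both cal. res. libraries, at 6.73 and 6.79, were its highest. The site at 2410080I02Rik (chr19:23133592-23137151), 5854 bp from the start of the glucocorticoid target Klf9, had 75.3 and 27.8, 100.2 and 68.1, and 94.1 and 83.7. Nfkbia encodes an inhibitor of NF-kappaB and is a textbook GR target. Its site (chr12:55491258-55493228) had 61.6 and 40.6 (ctrl.), 49.0 and 37.6 (cal. res.), and 59.8 and 40.7 (CORT), and these ranges overlapped. On the normalized log2 scale ctrl. (5.92 and 6.49) lay above cal. res. (5.31 and 5.30) and CORT (5.71 and 4.74). Ttpa encodes the liver's vitamin E transfer protein. Its site (chr4:20007586-20010036) had 41.1 and 28.2, 49.1 and 42.5, and 45.7 and 58.3. The remaining 3 were at Dynll1, Tedc2 and Gm26608, the last 16074 bp from Insig1, an inhibitor of cholesterol synthesis. Of the 10, 9 overlapped a FOXO1 region, and Dynll1 did not.

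FOXO1 regions of cal. res. liver covered 1083 of the 3078 members, or 35.2% (33.5 to 36.9%, exact binomial, counting error only). Among constant distal sites the share was 60.2% (58.8 to 61.5%). Seen from FOXO1, 1207 of 8068 regions (15.0%) overlapped a member. The share rose with GR rank, from 13.3% (10.9 to 15.9%) in the lowest of 4 equal bins of mean percentile through 23.5% and 37.1% to 66.9% (63.4 to 70.2%) in the highest bin. Distal sites went from 32.2% through 52.6% and 68.3% to 87.6%, above the members in each bin. The bins were made within each set, so the same bin holds different GR ranks. The quartiles of mean percentile were 52.5, 64.6 and 77.4 for members, and 64.5, 77.6 and 88.8 for distal sites. The shares were not compared at equal GR rank. CpG-poor members overlapped FOXO1 at 50.7% (47.6 to 53.8%) and CpG-rich members at 27.6% (25.7 to 29.6%). The FOXO1 fold enrichment at overlapped members had a median of 5.84 and ranged from 3.72 to 38.1.

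**Figure D2:**
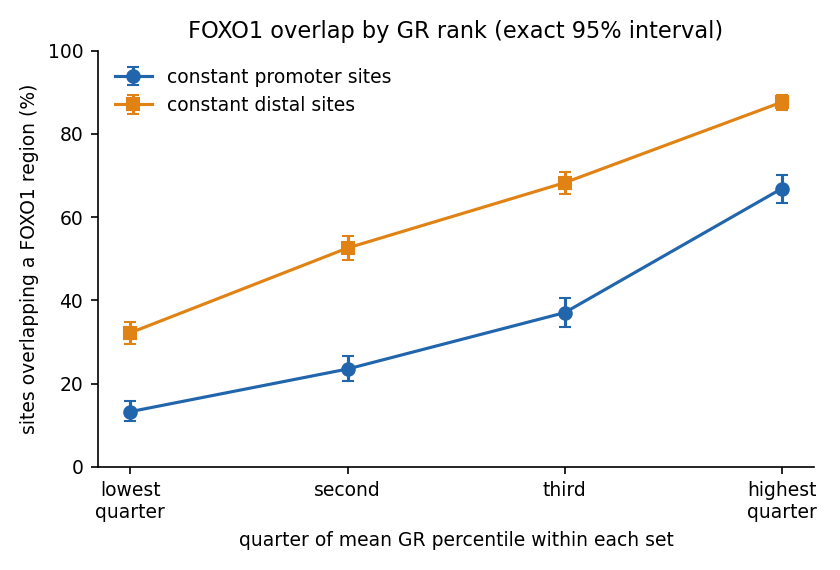
Share of sites that overlap a FOXO1 region of cal. res. liver (y axis, percent) in 4 equal bins of mean GR percentile within each set (x axis, lowest to highest), for constant promoter sites (circles) and constant distal sites (squares). Bars are 95% exact binomial intervals, and the share rises from 13.3 to 66.9% at promoters and from 32.2 to 87.6% at distal sites.

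Members with FOXO1 ranked higher in GR than members without it in 6 of 6 libraries. With FOXO1, the median percentile was 87.9 and 67.1 (ctrl.), 74.9 and 70.6 (cal. res.), and 88.0 and 90.6 (CORT). Without FOXO1 it was 75.02 and 48.5, 47.9 and 41.2, and 76.6 and 79.99. The difference was 12.9 and 18.6 points (ctrl.), 27.0 and 29.5 (cal. res.), and 11.4 and 10.6 (CORT), with a mean of 18.3. The two-sided exact sign-flip permutation test gave p = 0.0312, the smallest it can give with 6 libraries. The difference was present also in the CORT and ctrl. libraries, although FOXO1 was mapped in cal. res. alone. Distal sites showed differences of 9.25 to 21.8 points of the same sign.

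Pdk4 had the highest FOXO1 value among the members. It encodes a kinase that shuts pyruvate out of oxidation during fasting. Its promoter (chr6:5495826-5496993) had a FOXO1 fold enrichment of 38.1, and its GR fold enrichment was 14.5 and 7.59 (ctrl.), 13.4 and 10.7 (cal. res.), and 24.9 and 19.1 (CORT). Txnip encodes an inhibitor of glucose uptake. It had a FOXO1 value of 26.4 and GR values of 8.26 and 6.11, 18.4 and 14.5, and 14.3 and 25.3. On the normalized log2 scale its ctrl. and CORT libraries overlapped. Klf15, a regulator of amino acid breakdown and a GR target, had a FOXO1 value of 34.4 and GR values of 49.8 and 17.9, 43.3 and 29.5, and 52.6 and 74.5. Sardh, an enzyme of glycine metabolism, had a FOXO1 value of 22.7 with GR values of 26.7 and 7.99, 21.8 and 14.8, and 22.6 and 37.3. Of the 10, 3 were lincRNA starts: Gm34667 with 36.8, Gm31583 with 35.9 and Gm40787 with 27.6. The others were 5830473C10Rik with 34.1, Sorbs3 with 25.7 and Tymp with 24.6. The forkhead motif lay under the GR summit at Pdk4, Gm34667, 5830473C10Rik and Txnip.

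Motifs were searched in the 200 bp around the GR summit. A GRE was found in 44 members (1.43%), against 3.67% of constant distal sites and 0.106% of windows at all protein-coding starts. The hexamer AGAACA, a single arm of the GRE, was found in 10.9% of members, 25.6% of distal sites and 10.5% of starts. The liver factor motifs were likewise scarcer than at distal sites. The forkhead motif TGTTTAC was in 3.22% of members, 7.89% of distal sites and 1.68% of starts, and the C/EBP motif TTGCNNAA in 9.68%, 22.2% and 5.36%. The HNF4 motif CAAAGTCCA was in 0.780%, 3.07% and 0.352%, and the STAT motif TTCNNNGAA in 5.56%, 11.5% and 4.82%. The PPAR DR1 element was found in 1 member.

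Several motifs common at promoters were found at a higher share of members than of distal sites. The GC box GGGCGG, bound by SP and KLF factors, was in 52.2% of members, 7.79% of distal sites and 40.0% of starts. The ETS motif CCGGAAGT was in 3.83%, 0.199% and 4.11%. The NRF1 motif GCGCATGCG was in 2.18%, 0.0797% and 1.61%, and the YY1 motif AAGATGGCG in 1.40%, 0.0598% and 1.91%. The CRE TGACGTCA was in 2.01%, 0.538% and 1.78%, and the E-box CACGTG, the site of clock and related factors, in 8.02%, 5.26% and 5.09%. CCAAT had similar shares, 28.4%, 28.7% and 25.3%. All motifs were searched on both strands. AGAACA can be part of a GRE, and no other overlap was removed.

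**Figure D3:**
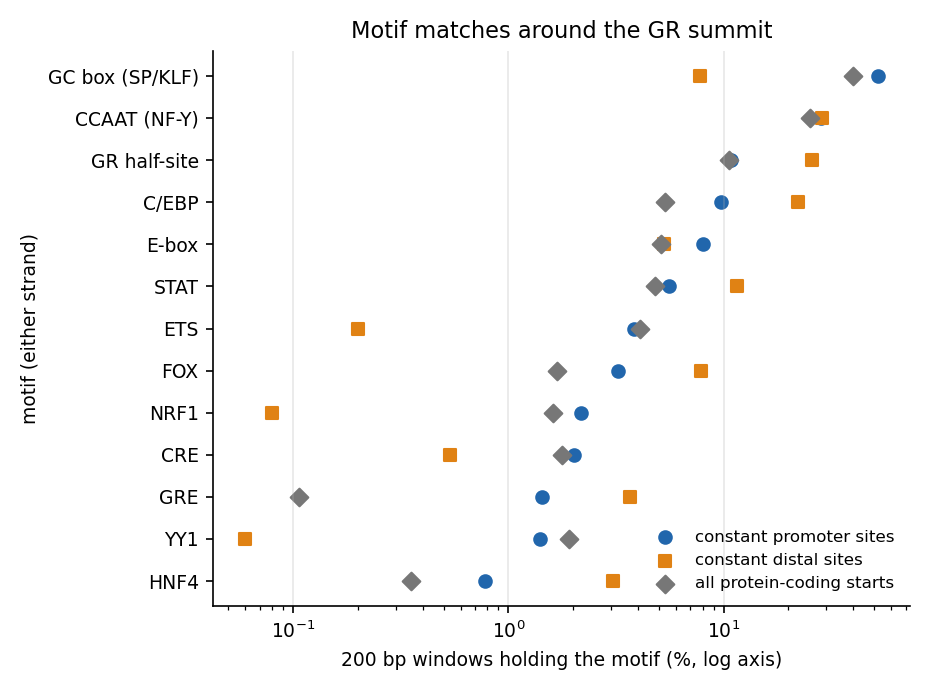
Share of 200 bp windows that hold each motif on either strand (x axis, percent, log axis) for constant promoter sites, constant distal sites and all protein-coding starts (symbols), with 1 motif a row (y axis). The GC box lies at 52.2% of members and 7.79% of distal sites, and the GRE at 1.43% and 3.67%.

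Members with a GRE ranked higher than members without it in 6 of 6 libraries, by a mean of 27.1 percentile points (13.3 to 45.6). Of the 100 members with the highest mean percentile, 19.0% had a GRE. The AGAACA hexamer went with a mean difference of 9.85 points, the forkhead motif with 10.5, the C/EBP motif with 9.52 and the STAT motif with 7.30, all positive in 6 of 6 libraries. The ETS, NRF1 and YY1 motifs went with lower ranks in 6 of 6 libraries, by means of -7.33, -8.20 and -9.39 points. For these 8 motifs the exact sign-flip permutation p was 0.0312, the smallest possible, and 0.0547 after Benjamini-Hochberg adjustment over the 14 motifs, so none passed 0.05. For the GC box (mean -4.97), CCAAT (2.16) and the E-box (0.232), the sign differed between libraries. The forkhead motif was in 7.57% of members with FOXO1 and 0.852% of those without, and the GRE in 2.22% and 1.003%.

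Of 21911 protein-coding genes, 3059 (14.0%) had a constant GR site within 1 kb of a start, and 48.6% had a promoter peak in any library. Against this background, genes of the clock, of insulin signalling and of hepatocyte identity carried such a site often. Among 19 clock genes 14 had one, among 18 insulin and FOXO genes 12, among 18 hepatocyte transcription factors 11, among 25 plasma protein genes 15, and among 20 GR targets 12. The housekeeping lists were nearer to the background, with 18 of 77 oxidative phosphorylation subunits, 9 of 45 mediator and RNA polymerase II subunits, 11 of 76 ribosomal protein genes and 5 of 39 proteasome subunits. Promoter peaks in any library were present at all 76 ribosomal protein genes and at 36 of 39 proteasome subunits, so that those peaks were mostly missing from some list. None of 16 genes of other tissues had a promoter peak in any library. The lists were drawn up with earlier results known, and no set test was run.

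**Figure D4:**
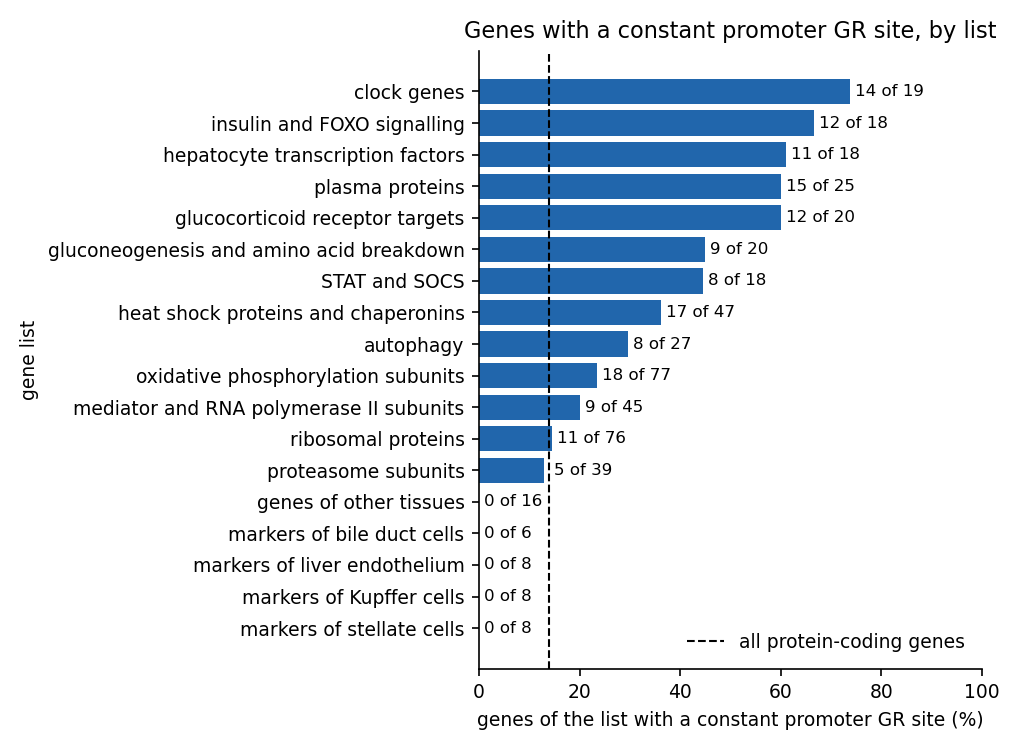
Share of the genes of each list that have a constant promoter GR site (bars, x axis in percent, 1 list a row), with the counts beside the bars. The dashed line marks all protein-coding genes (14.0%), and the bars run from 0 of 16 for genes of other tissues to 14 of 19 for clock genes.

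The clock list held repressors, activators and output factors of the circadian loop. Ciart, a repressor of the CLOCK and BMAL1 pair, had the highest rank of the list, with 40.0 and 27.0 (ctrl.), 44.4 and 33.0 (cal. res.), and 59.9 and 76.2 (CORT). Bhlhe40, a repressor that competes for E-boxes, had 48.3 and 12.5, 36.6 and 27.6, and 40.8 and 52.0. Nr1d2, the nuclear receptor REV-ERB beta, had 16.7 and 9.45, 9.77 and 7.99, and 19.5 and 23.2. Tef, a PAR bZIP output factor, had 20.7 and 7.34, 9.66 and 7.72, and 26.7 and 28.6. Other clock genes with a site included Nr1d1, Nfil3, Per2, Per3, Bhlhe41, Arntl, Rora, Cry2 and Clock. The median mean percentile of the 14 sites was 83.7, against 64.6 over all members, and 12 of 14 overlapped FOXO1.

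GR's own targets ranked highest of the lists, with a median of 91.5, and 11 of 12 overlapped FOXO1. Cdkn1a, a cell cycle inhibitor, had 42.2 and 13.4 (ctrl.), 81.2 and 81.2 (cal. res.), and 68.1 and 122 (CORT), with both ctrl. libraries lowest. Fkbp5, a chaperone that dampens GR itself, had 14.04 and 10.01, 30.8 and 30.2, and 35.97 and 55.4, again with both ctrl. libraries lowest. The list also held Nfkbia, Klf15, Mt2, G6pc, Klf9, Zbtb16, Sgk1, Tsc22d3, Ddit4 and Nr3c1, the GR gene. The gene choice of this list rests on GR's known action, so its rank is not independent of what the assay measures.

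Gluconeogenesis and amino acid breakdown genes had a site at 9 of 20, with a median percentile of 87.4 and FOXO1 at 7 of 9. Gpt, alanine aminotransferase, had 32.5 and 12.6, 37.4 and 31.1, and 39.1 and 72.8. G6pc, the last enzyme of glucose release, had 28.1 and 6.64, 14.9 and 13.9, and 23.9 and 26.1. Slc37a4, the transporter that feeds it, had 27.6 and 5.56, 18.2 and 14.4, and 16.4 and 37.6. Aass, an enzyme of lysine breakdown, had 15.4 and 6.11, 18.3 and 8.64, and 39.5 and 37.5. In all 4 the lowest library as deposited was ctrl. replicate 2, the library with the lowest median. On the normalized log2 scale ctrl. and cal. res. overlapped at G6pc, Slc37a4 and Aass, and at Gpt both ctrl. libraries (4.89 and 4.84) lay just below all others.

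In the insulin list the sites had a median percentile of 70.1, and 9 of 12 overlapped FOXO1. Trib1, a scaffold of protein degradation tied to blood lipids, had 29.999 and 12.02, 18.9 and 13.7, and 41.9 and 31.1. Irs2, the adaptor of the insulin receptor, had 17.8 and 8.31, 12.4 and 11.1, and 31.2 and 8.28, a wide split between the CORT libraries. Gsk3b, the kinase that restrains glycogen synthesis, had 9.91 and 6.72, 7.54 and 6.13, and 18.2 and 26.7. The CORT values were the highest as deposited, but on the normalized log2 scale ctrl. replicate 2 (3.78) lay between those of CORT (3.74 and 4.13).

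Among hepatocyte transcription factors the median percentile was 74.0, with FOXO1 at 5 of 11. Nr0b2, the bile acid induced repressor SHP, had 38.4 and 9.46, 30.6 and 16.1, and 36.2 and 50.7. Foxa2, a forkhead pioneer factor, had 15.0 and 6.74, 13.8 and 9.11, and 16.6 and 15.3. Cebpa, a bZIP factor of liver metabolism, had 14.3 and 5.99, 15.3 and 10.5, and 16.8 and 11.5. The plasma protein sites had a median of 83.4, with FOXO1 at 12 of 15. Ahsg, fetuin A, had 28.9 and 9.96, 24.6 and 25.4, and 36.3 and 48.3. Serpina6, the plasma carrier of corticosterone, had 22.5 and 7.78, 18.9 and 9.31, and 30.2 and 23.4. The next were Fetub and Apoc1.

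Among 18 STAT and SOCS genes 8 had a site, with a median percentile of 66.7 and FOXO1 at 3 of 8. Socs2, an inhibitor of growth hormone signalling, had 12.8 and 8.66, 14.5 and 8.46, and 23.6 and 10.8. Stat3 had 16.4 and 7.22, 10.2 and 7.54, and 23.5 and 26.8. Ghr, the growth hormone receptor, and Socs3 followed. Heat shock and chaperonin genes had a site at 17 of 47, with Hspd1 and Hspe1 sharing one, a median of 64.2 and FOXO1 at 6 of 16 sites. Hspa8, the constitutive HSP70, had 13.3 and 13.0, 12.2 and 10.7, and 37.6 and 24.9. On the normalized log2 scale its ctrl. values, 3.45 and 4.90, overlapped those of CORT, 4.92 and 4.05. Autophagy genes had a site at 8 of 27, with a median of 60.4 and FOXO1 at 1 of 8, and Ulk2, a starter kinase of autophagy, led with 15.4 and 6.09, 5.85 and 5.41, and 19.5 and 7.19. The housekeeping lists ranked at 51.1 for oxidative phosphorylation, 51.8 for ribosomal proteins, 49.8 for mediator and polymerase subunits and 67.3 for the proteasome. The highest of these was Rpl27, with 9.60 and 10.6, 10.4 and 11.02, and 19.1 and 33.4.

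The effect of cal. res. and of CORT on GR at the members was compared on quantile-normalized log2 fold enrichment over all 8097 constant sites, with limma and Benjamini-Hochberg adjustment. No member passed at 0.05 between cal. res. and ctrl., and none of all constant sites did (0% called). At an unadjusted p under 0.05, 61 members were higher and 283 lower in cal. res., and 5.22% of all constant sites were higher and 4.79% lower. The median difference over the members was -0.19 on the log2 scale (-0.0005 when the members alone were normalized), with 65.95% of them below 0. Over distal sites the median was 0.11, and over all constant sites it was 0.00. Quantile normalization sets the libraries to 1 distribution, so these are changes relative to the other constant sites. In 1012 members (32.9%) both cal. res. libraries lay below both ctrl. libraries, and in 392 (12.7%) above. Over all constant sites both shares were 21.0%. When the members alone were normalized, the members' shares were 21.0% below and 21.6% above. At an unadjusted p under 0.05, 170 members were then higher and 155 lower in cal. res.

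The members with the smallest p in this comparison are given as values only. BB123696, a lincRNA start 139529 bp from Syk, had 12.4 and 4.81 in ctrl. and 53.5 and 33.4 in cal. res., a log2 difference of 2.08 (SE 0.30, limma adjusted p = 0.119). Slc39a10, a zinc importer, had 44.6 and 19.4 in ctrl. and 8.69 and 9.10 in cal. res., a log2 difference of -2.11 (SE 0.34, limma adjusted p = 0.156). The next ones were BC049987 and Ppp1r11, with log2 differences of 1.64 and 1.33, and Gm44492 and Eif4g2, with -1.63 and -1.61, each at a limma adjusted p of 0.270. By promoter class the median log2 difference was -0.29 at CpG-rich members, 0.02 at CpG-poor members and 0.25 at the 44 members with a GRE. Distal sites of these classes had -0.05, 0.12 and 0.30.

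Between CORT and ctrl., 7 members passed, 5 higher and 2 lower in CORT. Over all constant sites 0.198% passed, 0.173% higher and 0.0247% lower. The median log2 difference was 0.08 over the members (-0.012 when the members alone were normalized), -0.08 over distal sites and -0.02 over all constant sites. In 803 members (26.1%) both CORT libraries lay above both ctrl. libraries, against 19.2% of all constant sites, and in 413 (13.4%) below, against 19.6%. At an unadjusted p under 0.05, 311 members were higher and 99 lower in CORT, against 6.55% and 5.98% of all constant sites. When the members alone were normalized, 212 were higher and 157 lower in CORT at this limit. Both CORT libraries then lay above both ctrl. libraries in 20.8% of the members and below in 19.3%. All 7 calls were lost when any of the cal. res. or CORT libraries was left out or when percentiles took the place of fold enrichment. Some of the 7 were lost without a ctrl. library as well, although no difference changed sign. With the series as a covariate 6 members were called in all, but Mir21a and Dynll1 were not, so the 6 include a member outside the 7. The call at Mir21a was lost with the series (limma adjusted p = 0.0801), the replicate block (0.0603) and p-values in place of fold enrichment (0.103), that at Dynll1 with the series (0.110) and median centring (0.0635), and that at Slc39a10 with the block (0.0603).

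Of the 5 members that rose with CORT, 4 lay nearest to starts of noncoding transcripts, and Gm45717 is annotated as protein-coding. BB123696 (chr13:52735965-52736798), with the GRE shown above and a FOXO1 value of 8.39, had 12.4 and 4.81 (ctrl.), 53.5 and 33.4 (cal. res.), and 47.6 and 88.5 (CORT). Both treatments lay above both ctrl. libraries, and the log2 difference of CORT was 2.38 (SE 0.30, limma adjusted p = 0.0115). Gm45717 (chr7:140954510-140957166) had 13.5 and 4.57 (ctrl.), 11.4 and 7.55 (cal. res.), and 44.9 and 83.7 (CORT). CORT stood apart from both other groups, with a log2 difference from ctrl. of 2.28 (SE 0.34, limma adjusted p = 0.0260). Gm11827 (chr4:11123001-11124359), 32751 bp from Trp53inp1, had 9.22 and 5.13, 18.9 and 30.1, and 42.6 and 66.4, and differed by 2.24 (SE 0.36, limma adjusted p = 0.0380).

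Mir21a, the gene of miR-21, lay in the widest of all members (chr11:86578293-86588835, 10543 bp). It had 24.1 and 7.37 (ctrl.), 21.6 and 17.5 (cal. res.), and 75.2 and 77.4 (CORT), and differed by 1.75 (SE 0.31, limma adjusted p = 0.0489). The site at Gm45774 (chr8:94170459-94176285), an antisense transcript 512 bp from Mt2, had 41.5 and 6.68, 41.5 and 32.01, and 110.4 and 202.2. Mt2 encodes a metallothionein that glucocorticoids induce. The site differed by 2.23 (SE 0.39, limma adjusted p = 0.0489), and the difference was 3.06 without ctrl. replicate 1, 1.42 without ctrl. replicate 2 and 1.45 with the series as a covariate.

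Of the 2 members that fell, Slc39a10 (chr1:46853047-46854446) had 44.6 and 19.4 (ctrl.), 8.69 and 9.10 (cal. res.), and 17.7 and 12.5 (CORT). The log2 difference of CORT was -2.05 (SE 0.34, limma adjusted p = 0.0384), and both treatments lay below both ctrl. libraries after normalization. Dynll1 (chr5:115300100-115301517), which encodes a dynein light chain, had 97.7 and 84.8, 65.5 and 60.5, and 57.6 and 42.7. It differed by -1.81 (SE 0.30, limma adjusted p = 0.0393), and its highest library was ctrl. in each series. Kmt5b, the next in order, had a log2 difference of -1.61 (SE 0.36, limma adjusted p = 0.122) and did not pass. Of all members of the gene lists, the Mt2 site alone was among those called.

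**Figure D5:**
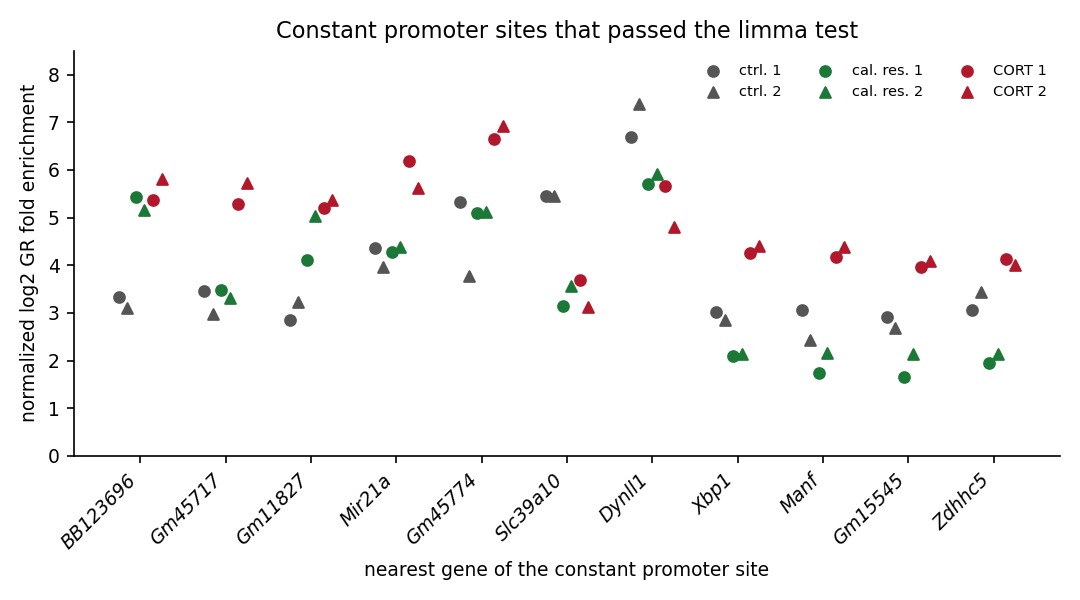
Normalized log2 GR fold enrichment (y axis) in the 6 libraries (points, circles for replicate 1 and triangles for replicate 2, coloured by group) at the 11 constant promoter sites that passed the limma test in any comparison (x axis). At Xbp1, Manf, Gm15545 and Zdhhc5 the ctrl. points lie between those of cal. res. and CORT, and at Slc39a10 and Dynll1 both ctrl. points lie above all others.

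Between cal. res. and CORT, 5 members passed, all lower in cal. res. Over all constant sites 0.111% passed, 0.0124% higher and 0.0988% lower. The median log2 difference was -0.27 over the members (0.023 when the members alone were normalized), with 69.1% below 0, 0.20 over distal sites and 0.04 over all constant sites. In 1324 members (43.0%) both cal. res. libraries lay below both CORT libraries, against 25.6% of all constant sites, and in 375 (12.2%) above, against 29.3%. At an unadjusted p under 0.05, 48 members were higher and 582 lower in cal. res., against 7.10% and 9.40% of all constant sites. When the members alone were normalized, 226 were higher and 275 lower in cal. res. at this limit. Both cal. res. libraries then lay below both CORT libraries in 25.6% of the members and above in 26.7%. These groups come from different series of library names. With the series as a covariate no member passed, although the median over the members was then -0.43 and the differences at the 5 called members ran from -2.42 (Zdhhc5) to -1.63 (Gm45717). The smallest limma adjusted p of the 5 was then 0.0978. No member passed without any single cal. res. or CORT library either.

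Xbp1 and Manf, which act in the endoplasmic reticulum's response to unfolded protein, were among the 5. Xbp1, a transcription factor (chr11:5520293-5522719), had 10.3 and 4.33 (ctrl.), 3.96 and 3.54 (cal. res.), and 25.6 and 32.2 (CORT). On the normalized log2 scale the ctrl. libraries, 1 of each series, had 3.01 and 2.84, between 2.10 and 2.14 in cal. res. and 4.26 and 4.41 with CORT. The difference was -2.21 (SE 0.33, limma adjusted p = 0.0343). Manf, a secreted factor induced by stress of the endoplasmic reticulum (chr9:106891390-106892678), had 10.5 and 3.62, 3.17 and 3.57, and 23.9 and 31.8, and differed by -2.33 (SE 0.36, limma adjusted p = 0.0380). No list of this pathway was drawn up, so the pair is named without a count over it.

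The rest were Gm15545, Gm45717 and Zdhhc5. Gm15545 (chr7:44986091-44987404), 180 bp from the arginine methyltransferase gene Prmt1, had 9.61 and 4.09, 3.03 and 3.53, and 21.2 and 25.6, and differed by -2.13 (SE 0.34, limma adjusted p = 0.0380). Gm45717 differed by -2.11 (SE 0.34, limma adjusted p = 0.0380). Zdhhc5, a palmitoyltransferase (chr2:84714642-84716253), had 10.5 and 5.66, 3.58 and 3.53, and 23.4 and 24.2, and differed by -2.03 (SE 0.34, limma adjusted p = 0.0451). In the other direction Bche, the plasma esterase made in liver, came nearest, with 5.57 and 3.53 (ctrl.), 12.6 and 10.4 (cal. res.), and 4.98 and 4.64 (CORT). Its log2 difference was 1.63 (SE 0.32, limma adjusted p = 0.0649), and both cal. res. libraries lay above all others. Rdh9 and Fam107b followed with 1.56 and 1.57 at limma adjusted p-values of 0.0956 and 0.0980.

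The shift between cal. res. and CORT differed with base composition, at members and at distal sites. The median log2 difference was -0.35 at CpG-rich members and -0.05 at CpG-poor members. At CpG-rich and CpG-poor distal sites it was 0.02 and 0.21. The 873 members with CCAAT had a median of -0.46 and the 2205 without it -0.20, and the 44 with a GRE had 0.13. Between CORT and ctrl. the medians were 0.26 with CCAAT and 0.01 without, and between cal. res. and ctrl. -0.18 and -0.20. By GC content the medians between cal. res. and CORT were 0.16 at members with 40 to 50% GC, -0.46 at 60 to 70% and -0.14 at 70% or more, so they followed no single order. Distal sites in the same bands had 0.29, -0.20 and -0.12. These splits carry no test.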

How the data were processed

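GR chromatin immunoprecipitation with sequencing was analysed in 6 liver libraries, 2 per group, and FOXO1 in 1 list. The authors aligned reads to mm10 with BWA, removed duplicates with Picard and other reads by mapping quality, called peaks with MACS2 in each GR library at a q of 0.1 and on the 2 merged FOXO1 libraries at a stricter limit, and removed blacklisted regions with bedtools. The deposited fold enrichment of a peak is a ratio of the signal at its summit to the local background, and the deposited -log10 p and -log10 q values come from the same MACS2 model. The study states 1 nominal read depth for the ChIP libraries; the read totals of single libraries were not analysed here, so no value has a depth-based interval. Whether an input library served as control is not given in the sources used here. Binomial intervals cover counting error only.

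Overlapping GR rows (1 bp or more) were merged into sites, each with its strongest peak per library. Starts came from GENCODE M21 basic (mm10). Percentiles rank fold enrichment among all sites of a library. Medians were compared with two-sided exact permutation tests over libraries (SciPy 1.17.1). Differences between groups were fitted with limma 3.58.1 (R 4.3.3), lmFit and eBayes with trend, on quantile-normalized log2 fold enrichment over all 8097 constant sites and all 3 groups, and called at a Benjamini-Hochberg adjusted p under 0.05. The limma script was tested on simulated data. The labels and methods call the libraries biological replicates, so the p-values measure the spread between 2 libraries a group. Members, gene lists and motifs were chosen with earlier results of these data known. Named were the 10 members with the highest mean percentile, the 10 with the highest FOXO1 value, for each comparison up to 5 members a direction that passed or otherwise 3, up to 4 members of each gene list by mean percentile, and the 2 sites on each side of the 1 kb limit. A site is named by its nearest start. Some members of the gene lists are counted but not reported here by name. Python 3.11.15, pandas 2.3.3, NumPy 2.4.6 and pysam 0.24.0 were used for all other steps. Alternatives covered stricter lists, equal list sizes, other start distances, other ranks, other normalizations, single libraries left out and 2 added terms in the model.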

Additional observations from a re-analysis of the deposited data

How the results depend on the processing

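No mean rank difference, group difference in rank or called member changed direction under the alternatives. Some medians over sites did: normalized alone, the members' median log2 difference was -0.012 (CORT against ctrl.) and 0.023 (cal. res. against CORT), since the members then share 1 distribution, and on percentiles the distal medians were 6.11 and -2.08 points. Between cal. res. and ctrl. the members' median, normalized alone, kept its sign at -0.0005. The number of members, 3078, was 1186 at a peak q of at most 1e-05 and 1386 when every list was cut to the same number of regions, and leaving out single libraries gave 3078 to 4032. Promoters were 35.99% of constant sites at a q of at most 0.01, 29.6% at 1e-05, 28.6% with equal lists, 33.1% with starts within 500 bp, 47.2% within 3 kb and 34.2% with protein-coding starts only, and 32.1 to 40.9% with single libraries left out. FOXO1 covered 38.7%, 53.3%, 53.8%, 32.9%, 40.3% and 32.9% of members under the same 6 settings, 18.03% with the upper 50% of FOXO1 regions, 31.7% with summits within 100 bp, and 31.0 to 35.2% with single libraries left out.

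The distance in rank between distal and promoter sites was 12.6 points at a q of at most 0.01, 10.2 at 1e-05 and 11.9 by -log10 p, each at an exact permutation p of 0.0625, and 9.46 with equal lists at p = 0.0938. CORT replicate 1 turned sign in these 4 settings. The distance was 8.98 to 15.0 with single libraries left out, and the difference with FOXO1 17.5 to 20.6. With 5 libraries p cannot go below 0.0625. The GRE share was 3.04% at 1e-05, 2.60% with equal lists and 1.01% around the summit of ctrl. replicate 1, and 1.20 to 1.43% with single libraries left out. Equal lists left 83 of 148 gene list members with a site. The median summit distance of 126 bp was 163 bp with equal lists, 114 bp within 500 bp and 171.5 bp within 3 kb.

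Counts of called members depended on the normalization and on single libraries. Between cal. res. and ctrl. limma called 5 members with median centring, 2 when fitted on promoters alone, and 0 to 4 with single libraries left out. Between CORT and ctrl. it called 0 with percentiles, and 0 to 15 with single libraries left out. Between cal. res. and CORT it called 183 with median centring (11 higher, 172 lower), 0 with percentiles, 13 with log2 of -log10 p, 19 on promoters alone, 28 with the upper 75% of mean fold enrichment, 0 with the library name series, and 0 to 232 with single libraries left out (154 without ctrl. replicate 1, 232 without ctrl. replicate 2). Same-numbered replicates correlated by -0.112, -0.143 and 0.129 in their deviations, so the numbers do not pair the samples; with the replicate block, 0, 5 and 0 members were called in the 3 comparisons. The cause of these changes was not tested. The 2 libraries a group, whose read totals were not analysed here, limit the precision.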

Other observations

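Of the 3078 constant promoter sites, 2 lay on the mitochondrial genome, nearest to mt-Ti and mt-Nd6. The site at mt-Ti had a GR fold enrichment of 3.68 and 3.86 in the ctrl. libraries, 3.86 and 3.02 with cal. res., and 18.1 and 17.1 with CORT. The site at mt-Nd6 had 3.36 and 3.62, 3.70 and 2.85, and 18.4 and 17.7. Both CORT libraries stood above the other 4 at both sites, ctrl. replicate 1 of the same name series included. FOXO1 had a fold enrichment of 6.02 and 5.87 there. Neither site passed the limma test in any comparison, and their median log2 difference of CORT from ctrl. was 1.57. Their median mean percentile was 39.5, against 64.6 over all members. Neither site was named by the rule, and both were chosen after their values were seen.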
